A study of Mus musculus with 8 samples.

Results

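The transcripts of 9 amino acid transporters of the plasma membrane were followed in the liver of mice on 2 diets. They were chosen by gene symbol, as Slc7a2, Slc38a2, Slc38a3, Slc38a4, Slc3a2, Slc43a1, Slc16a10, Slc6a9 and Slc6a6, and all 9 are among the 11784 genes of the deposited table. The mice were male C57BL/6J animals placed at 9 weeks of age on an amino acid defined diet. The Low AA diet (TD.140712) draws a smaller share of its calories from amino acids and a larger share from carbohydrate than the diet of the Control group (TD.140711). After 4 months and an overnight fast of about 16 hours, liver poly(A) RNA was sequenced from 4 mice of each diet. Each value is a read count scaled between mice and rounded by the authors, called here a scaled read count. These values summed to between 27876664 and 30799385 per mouse.

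Amino acid carriers of the hepatocyte membrane set how much of the portal supply of amino acids enters the liver, where carbon skeletons are used for gluconeogenesis and nitrogen for urea and glutamine. Sodium-coupled carriers of the Slc38 family concentrate small neutral amino acids and glutamine in the cell, cationic amino acids enter through Slc7a2, and facilitative carriers such as Slc43a1 and Slc16a10 let branched-chain and aromatic amino acids pass in either direction. Some carrier genes, among them Slc38a2 and Slc3a2, are known targets of ATF4, the transcription factor of the amino acid response, which is made when amino acids run short.

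None of the 9 transporters was called between the diets in limma at an adjusted p under 0.05, against 0.399% of all genes (47 of 11784). At an unadjusted p under 0.05 there were 2 of the 9, Slc38a3 and Slc6a9, both with lower means on the Low AA diet, beside 11.8% of all genes (6.7% lower and 5.13% higher). The mean on the log2 scale was lower on the Low AA diet in 8 of the 9 and higher in 1, Slc38a2, where 49.5% of all genes were lower. The median log2 fold change, Low AA against Control, was -0.22 over the 9 and 0.00 over all genes. No transporter had values that separated the diets completely (6.81% of all genes did, 3.26% with higher and 3.55% with lower Low AA values), and the exact permutation p, two-sided and not adjusted over the 9 tests, ran from 0.0857 to 0.943, where 4 mice against 4 can reach 0.0286.

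The tissue was liver by its defining genes, with 10 of 10 hepatocyte markers listed and their summed values between 2594409 and 3074803. Control mouse F2212 stood apart for acute-phase genes. Saa1, a serum amyloid A gene, was at 57733 there and at 68 to 2818 in the other mice, and Orm1, which encodes orosomucoid, was at 16131 against 955 to 11372. Both were also lower in every Low AA mouse than in every Control mouse, at 68 to 770 against 1068 and above for Saa1 and at 955 to 5794 against 8111 and above for Orm1, and neither was called (limma adjusted p = 0.261 and 0.0908). The list as a whole was mixed, with 8 of 19 acute-phase genes at positive and 11 at negative log2 fold changes. Values did not overlap in 1 with higher and 3 with lower Low AA values, beside 3.26% and 3.55% of all genes. Cela1, an elastase and the only pancreas marker listed of 13, was at 36587 in F2212 and at 130 to 288 in the others. Every listed gene has at least 28 in 3 or more mice, so pancreas genes high in F2212 alone might not be listed. The part of the acute-phase genes and Cela1 in the results below was not tested. Values without F2212 are given for the 9 transporters and for some of the other genes named. No transporter was called without F2212.

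In order of transcript level, scaled read counts were divided by the merged exon length of each gene in kilobases. Slc38a4 stood highest at 9832 ± 1151 per kb (SD, n = 8 mice), Slc38a3 followed at 7456 ± 1329 and Slc7a2 at 3957 ± 1123. These 3 genes made up 87.0% to 91.5% of the summed level per kb of the 9 in every mouse. Slc38a2 was at 1075 ± 350 per kb and Slc16a10 at 560 ± 100, and Slc3a2 and Slc6a6 lay together at 307 ± 25.6 and 304 ± 48.9. The 2 lowest were Slc6a9, at 143 ± 55.6 per kb, and Slc43a1, at 40.8 ± 16.7. All but 1 of the 8 steps in this order held within each of the 8 mice. The exception was Slc3a2 and Slc6a6, which were in this order in 4 of 8 mice and do not differ beyond their spread. The ranges over mice overlapped for 5 of the 8 neighbouring pairs and did not overlap between Slc7a2 and Slc38a2, between Slc16a10 and Slc3a2, or between Slc6a9 and Slc43a1.

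**Figure D1:**
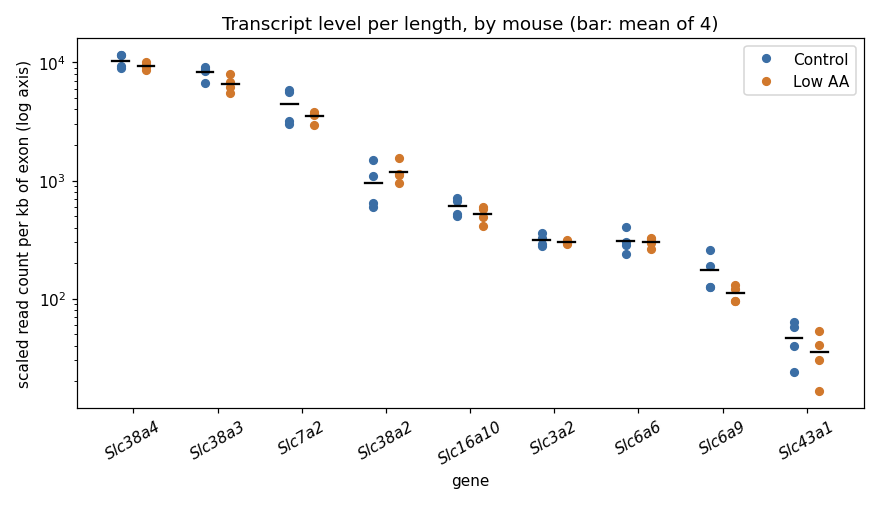
Scaled read count per kb of merged exon on a log axis for each transporter, with 1 point per mouse, Control in blue and Low AA in orange, and a bar at the mean of 4 mice. Slc38a4, Slc38a3 and Slc7a2 lie above the other 6 genes in every mouse, and Slc43a1 lies lowest.

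The Slc38 family members are neighbours in function. Slc38a4 encodes SNAT4, a carrier of small neutral amino acids that also takes cationic ones. It lies on chromosome 15 from 96994820 to 97055956 (GRCm38, GENCODE M21), on the minus strand. Its scaled read counts were 37156, 38299, 47389 and 47982 in Control mice F129, F2212, F7111 and F2110, and 35566, 38857, 37374 and 41672 in Low AA mice H1126, H828, H817 and H1315. The Low AA mice were close together and lay among and below the Control values, and the 2 highest values belonged to Control mice F7111 and F2110. The log2 fold change was -0.15 (standard error, SE, 0.12, 95% interval -0.42 to 0.12, limma adjusted p = 0.712), and -0.09 without F7111 or without F2110.

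Slc38a3, on chromosome 9 from 107650634 to 107669530, encodes SNAT3, which moves glutamine, asparagine and histidine and in liver serves both glutamine uptake and release. Control values were 24022 in F129, 30183 in F2212, 31224 in F7111 and 32700 in F2110, a mean of 29532 ± 3816 (SD, n = 4). Low AA values were 21867 in H1126, 19696 in H828, 24230 in H817 and 28294 in H1315, a mean of 23522 ± 3681 (SD, n = 4). Of the Control mice, 3 were above every Low AA mouse, and F129 fell inside the Low AA range. The log2 fold change of -0.33 (SE 0.14, 95% interval -0.65 to -0.02) had a limma adjusted p of 0.396 and an unadjusted p of 0.0404 in the same fit. Without F129 it was -0.43 (limma adjusted p = 0.289), and without F2212 it was -0.32 (limma adjusted p = 0.459).

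Slc38a2 encodes SNAT2, the carrier of small neutral amino acids that cultured cells make more of when starved of amino acids. The gene is on chromosome 15 from 96687392 to 96699730, on the minus strand. It was the one transporter with a higher mean on the Low AA diet, with 5552 ± 1208 against 4465 ± 1994 scaled read counts (SD, n = 4 each). The Low AA mice ran from 4460 in H817 to 7275 in H828, with 5146 in H1126 and 5325 in H1315. Control mice F129 and F2212, at 2996 and 2765, were below all of them, while F7111, at 7014, and F2110, at 5083, were inside their range. The log2 fold change was 0.40 (SE 0.28, 95% interval -0.22 to 1.02, limma adjusted p = 0.651). It was 0.65 without F7111 (limma adjusted p = 0.271) and 0.20 without F2212 (limma adjusted p = 0.828), so a single Control mouse moved its size and in neither fit was it called.

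Slc7a2, on chromosome 8 from 40862396 to 40922308, encodes CAT-2, the liver's carrier of arginine, lysine and ornithine. Control values were 27492 in F129, 26341 in F2212, 50522 in F7111 and 48369 in F2110. Low AA values were 31523 in H1126, 31164 in H828, 25775 in H817 and 32986 in H1315. The 4 Low AA mice lay near the lower pair of Control mice, and the upper pair stood well above every other mouse. The SD on the log2 scale was 0.16 among Low AA mice and 0.51 among Control mice. Between the diets the log2 fold change was -0.27 (SE 0.22, 95% interval -0.76 to 0.22, limma adjusted p = 0.709), and without F2212 it was -0.43 (limma adjusted p = 0.448). It was smaller without either mouse of the upper Control pair, at -0.11 without F7111 and -0.14 without F2110 (limma adjusted p = 0.835 and 0.866). Some exon bases of Slc7a2 overlap a gene on the opposite strand, Gm26584, and whether reads were counted by strand is not given in the sources used here.

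**Figure D2:**
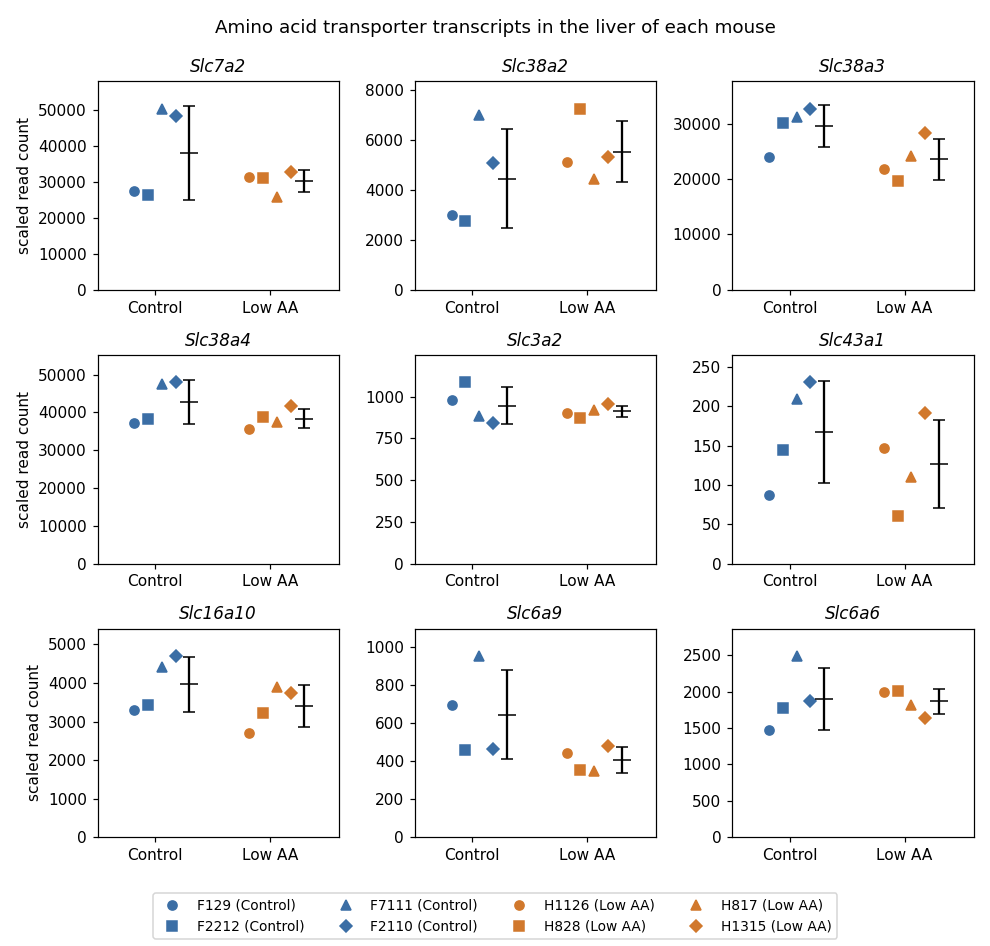
Scaled read counts of each of the 9 transporters on a linear axis from 0, with 1 symbol per mouse, Control in blue and Low AA in orange, and the mean with its SD in black (n = 4). For every gene the values of the 2 diets overlap, and in Slc7a2 the Control mice form a lower and an upper pair.

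Among the facilitative carriers, Slc16a10 encodes TAT1, which carries aromatic amino acids and thyroid hormones. It lies on chromosome 10 from 40033532 to 40142258. Control values were 3289, 3437, 4423 and 4706 in F129, F2212, F7111 and F2110, and Low AA values were 2708, 3224, 3906 and 3749 in H1126, H828, H817 and H1315. The 2 lowest mice were on the Low AA diet and the 2 highest on the Control diet, with the others mixed between them. Its log2 fold change was -0.22 (SE 0.15, 95% interval -0.56 to 0.12, limma adjusted p = 0.651). It was -0.12 without H1126 and -0.13 without F2110 (limma adjusted p = 0.9 and 0.824).

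Slc43a1 encodes LAT3, a carrier of branched-chain amino acids and phenylalanine, on chromosome 2 from 84838850 to 84863594. It was the least abundant of the 9 and the most variable, with a within-diet SD of 0.67 on the log2 scale, larger than that of 97.5% of all genes. Values were 87, 144, 209 and 231 in Control mice F129, F2212, F7111 and F2110, and 147, 60, 110 and 192 in Low AA mice H1126, H828, H817 and H1315. Both diets spanned most of the range. Slc43a1 had a log2 fold change of -0.42 (SE 0.38, limma adjusted p = 0.742), with a 95% interval from -1.27 to 0.42, the widest of the 9. With a mouse left out it ran from -0.70 without F129 to -0.10 without H828 (limma adjusted p = 0.54 and 0.961).

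Slc3a2 encodes the 4F2 heavy chain, CD98, which does not transport by itself but carries light chains of the Slc7 family to the membrane. It is on chromosome 19 from 8706882 to 8723369. Its values were 977, 1086, 882 and 839 in Control mice F129, F2212, F7111 and F2110, and 900, 874, 922 and 953 in Low AA mice H1126, H828, H817 and H1315. The Low AA mice were nearly equal, with an SD of 0.05 on the log2 scale, and sat in the middle of the Control mice. Its log2 fold change between diets was -0.05 (SE 0.10, 95% interval -0.28 to 0.18, limma adjusted p = 0.914), and without F2212 it was 0.023 (limma adjusted p = 0.957). Of its light chains, Slc7a5, the large neutral amino acid carrier LAT1, was at 90.3 ± 4.11 scaled read counts in Low AA mice against 78.3 ± 20.4 in Control mice (SD, n = 4 per diet, limma adjusted p = 0.703). The light chains Slc7a7 and Slc7a8 had log2 fold changes of 0.11 and -0.21 (limma adjusted p = 0.895 and 0.778).

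The remaining transporters belong to the Slc6 family of sodium- and chloride-coupled carriers. Slc6a9 encodes GLYT1, the glycine transporter, on chromosome 4 from 117834506 to 117875198. Control values were 699 in F129, 460 in F2212, 956 in F7111 and 466 in F2110. Low AA values were 441 in H1126, 352 in H828, 351 in H817 and 483 in H1315. Of the Low AA mice, 3 were below every Control mouse, and H1315 lay above the 2 lowest Control values. Its log2 fold change of -0.61 (SE 0.23, 95% interval -1.12 to -0.10) was the largest in size of the 9, with an unadjusted p of 0.0235 and a limma adjusted p of 0.322. When the columns were scaled to equal totals the diets did not overlap, with Control mice at 460 and above and Low AA mice at 456 and below. Leaving out F7111 brought the log2 fold change to -0.40 (limma adjusted p = 0.389), and leaving out F2212 brought it to -0.75 (limma adjusted p = 0.196).

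Glycine carried by GLYT1 also feeds haem synthesis in red cell precursors, and the listed red cell genes had negative log2 fold changes, none called. On the log2 fold change scale Hba-a1, an alpha globin, was at -0.72 (limma unadjusted p = 0.0435) and Alas2, the erythroid enzyme of haem synthesis, at -0.49 (limma unadjusted p = 0.014). The globins Hba-a2 and Beta-s were at -0.49 and -0.46 (limma unadjusted p = 0.29 and 0.261). The limma adjusted p of Hba-a1 and Alas2 in all mice was 0.409 and 0.266. Without F2212, Hba-a1 and Alas2 were at -0.52 and -0.36 (limma unadjusted p = 0.119 and 0.0334, adjusted p = 0.539 and 0.351). Alas2 was at 911 to 1332 in Low AA mice and at 1362 and above in Control mice. It was the 1 gene of the 7 listed blood cell markers without overlap, where 3.55% of all genes had lower Low AA values without overlap. Hba-a2 was at 5207 in F2212 and at 792 to 2147 in the other Control mice, against 1231 to 1498 in Low AA mice. The summed values of the 7 of 10 blood cell markers listed were 9582 to 14014 in Low AA mice and 7471 to 28043 in Control mice. Control mouse F7111, with the highest Slc6a9, had the lowest of these sums. In F2212, which had the highest of these sums, Slc6a9 was at its lowest Control value. The part of blood cells in the Slc6a9 values was not tested. Some exon bases of Slc6a9 overlap those of Ccdc24 and Gm17114 on the opposite strand.

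Slc6a6 encodes TAUT, the taurine transporter, on chromosome 6 from 91684053 to 91759066. Values were 1476, 1777, 2491 and 1868 in Control mice F129, F2212, F7111 and F2110, and 1989, 2013, 1816 and 1637 in Low AA mice H1126, H828, H817 and H1315. The Low AA mice fell within the Control range. The log2 fold change was -0.01 (SE 0.15, 95% interval -0.35 to 0.33, limma adjusted p = 0.989).

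Without F2212 the remaining log2 fold changes were -0.20 for Slc38a4, -0.28 for Slc16a10, -0.46 for Slc43a1 and -0.03 for Slc6a6. Over the 9 genes in all mice, 6 of the intervals lay wholly within 1 log2 unit of no difference, and those of Slc38a2, Slc43a1 and Slc6a9 reached past it. These intervals are not adjusted for the number of genes, and a p that misses the threshold does not show that the diets gave the same level.

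**Figure D3:**
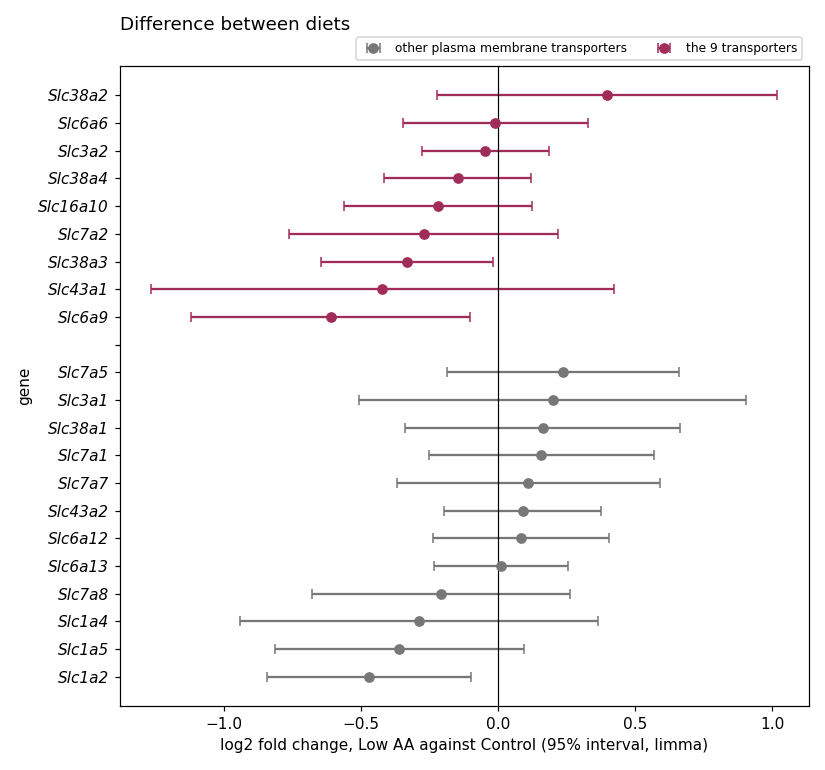
Log2 fold change, Low AA against Control, with its 95% limma interval, for the 9 transporters in dark pink and for 12 other plasma membrane amino acid transporters in grey. The intervals of Slc38a3, Slc6a9 and Slc1a2 lie below 0 before adjustment, and none of the 21 genes was called.

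The spread among mice of a diet was set side by side for the 9 genes. In 7 of the 9 transporters the SD on the log2 scale was larger in the Control group, which was also so for 67.5% of all genes. In 7 of the 9, all but Slc3a2 and Slc6a9, the 2 highest Control values were those of F7111 and F2110, an order found in 23.5% of all genes. The order was noticed in the values and was not tested. Slc7a2 in these mice was 1.92 times as high at its highest as at its lowest, and Slc38a2 2.54 times, against 1.28 and 1.63 times among the Low AA mice. By this ratio 6 of the 9 spread more among Control mice and 3, Slc38a3, Slc43a1 and Slc16a10, more among Low AA mice. Slc3a2 ran the other way, with F7111 and F2110 as its 2 lowest Control mice.

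**Figure D4:**
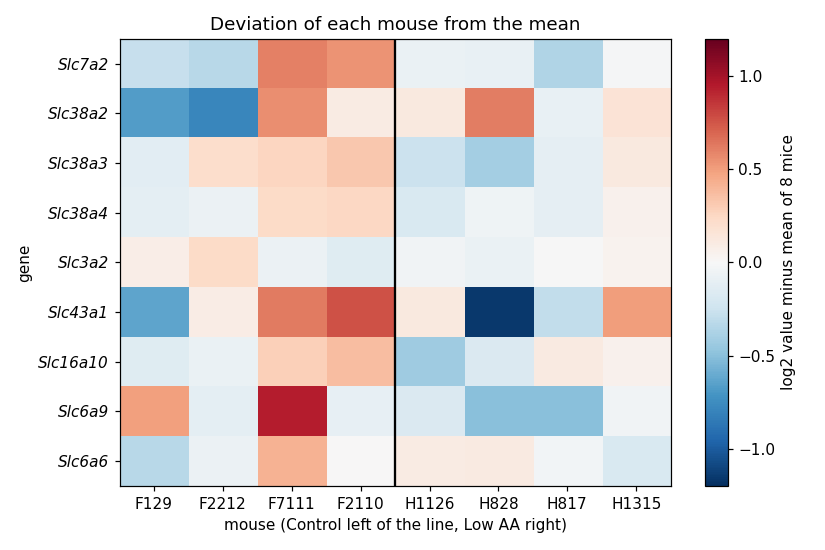
Deviation of each mouse from the mean of the 8 mice on the log2 scale, red above and blue below, with genes in rows and mice in columns and a line between the Control and Low AA mice. F7111 and F2110 are red for Slc7a2, Slc38a3, Slc38a4, Slc43a1 and Slc16a10, and Slc3a2 is blue in both of these mice.

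The wider group of amino acid carriers was read in the same way. Of 37 other plasma membrane transporters, 12 are listed in the table, and none of them was called. Their log2 fold changes were positive in 8 and negative in 4, with a median of 0.09. Slc1a2, the glutamate transporter GLT-1, was at 4515 ± 638 scaled read counts in Low AA mice against 6325 ± 1394 in Control mice (SD, n = 4 per diet). Its log2 fold change was -0.47, with an SE of 0.17 (limma adjusted p = 0.289). Slc1a2 was the 1 gene of the 12 with an unadjusted p under 0.05. The related neutral carriers Slc1a5 and Slc1a4 had log2 fold changes of -0.36 and -0.29 (limma adjusted p = 0.55 and 0.777). Slc1a2 is a gene of hepatocytes around the central vein. Of 8 other markers of those cells 6 had negative log2 fold changes, with a median of -0.16, beside 49.5% of all genes. Of 8 periportal markers 4 did, with a median of -0.04, and no marker of either list was called. The lowest were Cyp1a2 at -0.59 and Cyp2f2, a periportal marker, at -0.77 (limma adjusted p = 0.245 and 0.131). The part of position around the vein in the Slc1a2 values was not tested. The carriers of betaine and taurine or GABA, Slc6a12 and Slc6a13, had mean levels per kb of 962 and 1885, above those of 5 and 6 of the 9, and were nearly equal between diets, with log2 fold changes of 0.08 and 0.01 (limma adjusted p = 0.88 and 0.983). Slc43a2, a relative of Slc43a1, and Slc3a1, the heavy chain of the cystine carrier, had log2 fold changes of 0.09 and 0.20 (limma adjusted p = 0.846 and 0.867).

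Among transporters of lysosomes and other inner membranes, 10 of 11 are listed, and none was called. Slc36a1, which exports small amino acids from lysosomes, was at -0.31 on the log2 fold change scale (limma adjusted p = 0.414), and Slc15a4, a histidine and peptide carrier, was at 0.32 (limma adjusted p = 0.425). Slc36a4 was at 0.20 (limma adjusted p = 0.851).

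Enzymes that use the carried amino acids were also without a call. None of the 8 arginine and urea cycle enzymes passed, and the largest differences there were those of Oat, Ass1 and Arg1, with log2 fold changes of -0.41, -0.39 and 0.30 (limma adjusted p = 0.474, 0.569 and 0.735). In the 11 enzymes of glutamine, alanine and asparagine, Got1, Gpt and Glud1 were at 0.39, -0.30 and -0.25 (limma adjusted p = 0.653, 0.538 and 0.581). For branched-chain and aromatic amino acids, 18 of 19 enzymes are listed, 13 of them with negative log2 fold changes, among them Haao at -0.35 and Hpd at -0.30 (limma adjusted p = 0.475 and 0.456). The 10 glycine enzymes were led by Gatm at 0.34, Gnmt at -0.22 and Glyat at -0.22 (limma adjusted p = 0.717, 0.767 and 0.689). Of the 4 listed enzymes of taurine, Csad, which makes hypotaurine, was at -0.40 (limma adjusted p = 0.578), Baat at -0.11 and Cdo1 at 0.07 (limma adjusted p = 0.78 and 0.885).

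The amino acid response was read from 22 of 26 listed ATF4 genes other than carriers. None was called, 11 had positive and 11 negative log2 fold changes, and their median was -0.01. Vldlr, a lipoprotein receptor, came nearest, at 140 ± 42.3 scaled read counts in Low AA mice against 55.3 ± 16.2 in Control mice (SD, n = 4 per diet) and with no overlap between diets. Its log2 fold change was 1.31, with an SE of 0.26 (limma adjusted p = 0.0711). Over the 13 alternative fits that held it the adjusted p ran from 0.0323 to 0.179, and it was called in 2, with array weights and without F2212. Asns, asparagine synthetase, was 1.30 higher on the log2 scale, with an SE of 0.49 (limma adjusted p = 0.321), and Nupr1, high only in F2212 at 1129, was at -1.44 (limma adjusted p = 0.678). Without F2212 Nupr1 was at -0.070 and Asns at 1.6 (limma adjusted p = 0.958 and 0.194). Of the 22 genes, 4 with positive and 2 with negative log2 fold changes had a limma unadjusted p under 0.05. Beside them stood 5.13% and 6.7% of all genes. Diets did not overlap in 2 positive genes, Vldlr and Ddit4, and 1 negative, Psph, beside 3.26% and 3.55% of all genes. Ddit4 was at 0.72 and Psph at -0.38 (limma adjusted p = 0.281 and 0.462). Of carriers that are known ATF4 targets, Slc38a2 and Slc3a2 were at 0.40 and -0.05, Slc6a9 at -0.61, and, outside the 9, Slc7a5 at 0.24, Slc7a1 at 0.16, Slc1a5 at -0.36 and Slc1a4 at -0.29.

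The letters of the element that ATF4 binds with C/EBP partners were searched in promoter windows to set the carriers beside the response genes. The motif was TGATGNAA, on either strand, in RefSeq windows (GRCm38.p6) from 250 bases before to 50 after each start site. It was found in 3.97% of all 32851 windows, in 8 of the 24 windows of 20 matched response genes, and in 0 of the 10 windows of the 6 matched transporters, namely Slc38a2, Slc38a4, Slc3a2, Slc43a1, Slc16a10 and Slc6a9. Among other plasma membrane transporters it was in 3 of the 21 windows of 9 matched genes, those of Slc1a4 and Slc7a7. The element known for Slc38a2 lies in its first intron, outside the window searched. Shown are the stretches around the match for 3 response genes, with the match in capitals and read 5′ to 3′ on the strand of the gene, and TTGCATCA being the motif on the other strand.
Asns, chr6:7693210-7693253, minus strand: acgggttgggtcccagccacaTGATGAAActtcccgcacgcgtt
Fgf21, chr7:45615601-45615650, minus strand: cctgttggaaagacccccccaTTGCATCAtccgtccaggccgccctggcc
Vldlr, chr19:27216799-27216848, plus strand: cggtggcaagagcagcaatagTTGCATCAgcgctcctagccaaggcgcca

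For comparison, the 250 bases before the start sites of Slc38a2 and Slc3a2, carriers that are ATF4 targets, hold no match and so no capitals. The stretch of Slc3a2 lies before a RefSeq start site inside the span given above (8706882 to 8723369), not at the upstream end of that span.
Slc38a2, chr15:96699729-96699978, minus strand: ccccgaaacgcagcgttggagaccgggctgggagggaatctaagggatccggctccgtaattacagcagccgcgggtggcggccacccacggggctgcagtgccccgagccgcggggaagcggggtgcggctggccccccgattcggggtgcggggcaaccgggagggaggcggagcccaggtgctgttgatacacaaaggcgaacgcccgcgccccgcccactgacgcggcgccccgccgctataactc
Slc3a2, chr19:8713898-8714147, minus strand: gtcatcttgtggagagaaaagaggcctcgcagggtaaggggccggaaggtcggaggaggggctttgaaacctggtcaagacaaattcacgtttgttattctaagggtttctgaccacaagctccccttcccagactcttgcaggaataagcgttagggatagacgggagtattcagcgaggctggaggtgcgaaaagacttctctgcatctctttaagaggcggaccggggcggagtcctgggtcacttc
The window of Slc38a2 is 72.0% G and C and that of Slc3a2 53.6%. A match of letters is a description and not a bound site, and of the 8 response genes with a match 4 had positive and 4 negative log2 fold changes, none called.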

How the data were processed

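Liver poly(A) RNA of 4 Control and 4 Low AA mice was sequenced from stranded libraries. The authors deposited 1 table with a signal for each of 11784 genes in each mouse, a read count scaled between mice and rounded. Scaling was inferred from medians over genes of 433 to 449 and from regular gaps among low numbers. Per the submitters' processing notes, bcl2fastq 1.8.2, STAR 2.5.0a, RSEM 1.2.6, edgeR 3.10.5 and R 3.2.1 were used with the build mm10, with no roles given. The counting annotation, strand setting and any low-value filter were not given in the sources used here. Every listed gene has at least 28 in 3 or more mice. The authors' own fold change and FDR columns were not used. These totals follow scaling and do not give the exact sequencing depth.

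The diets were compared by limma 3.58.1 (R 4.3.3) after adding 1 and taking log2, which makes changes of low genes look smaller than they are. The variance prior followed the mean, p-values were adjusted by Benjamini-Hochberg across the 11784 genes, and a gene was called at an adjusted p under 0.05. The fit was tested on simulated data. Exact permutation tests were run over mice with scipy 1.17.1. Intervals are 95% limma intervals. Mice of a diet are taken as separate animals, so p-values set the difference between diets against the spread among mice of a diet. The mice were group housed and cages are not given, so the part of a shared cage could not be tested. Positions and merged exon lengths are from GENCODE M21 (GRCm38, the build named as mm10), and promoter windows from RefSeq. Emr1, Beta-s and Pqlc2 in the table were matched to list symbols as synonyms.

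The transporters and lists were chosen with earlier results of these data known. Named genes were the 9 transporters, called genes of the transporter, enzyme and response lists, the 5 most abundant and 3 most changed other transporters, the 3 most changed genes of each other list, the 2 genes most like each transporter, and Saa1 and Orm1. Some genes that this rule names are not reported here. Slc7a1, Slc7a5, Slc7a7, Slc7a8, Cela1, Hba-a1, Hba-a2, Beta-s, Alas2, Cyp1a2, Cyp2f2 and Fgf21 are outside it and were picked with their values in view. Ddit4 and Psph are also outside it and were picked in the same way. None of the muscle and adipose markers is listed.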

Additional observations from a re-analysis of the deposited data

How the results depend on the processing

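Other pseudocounts (0.1 and 5), equal column totals, the 8000 genes with the highest mean, no mean-variance trend, array weights and each mouse left out in turn were tried. None of the 9 transporters and none of the 12 other plasma membrane transporters was called under any of them. Slc43a1 is not among the 8000 genes, so it has no value there. Of 125 pairs of a transporter and an alternative, 120 kept the direction and 5 reversed, and the smallest adjusted p was 0.128. The reversals were in Slc3a2, at -0.10 to 0.023 with a mouse left out (0.023 without F2212), and in Slc6a6, at -0.12 to 0.13 with a mouse left out and 0.088 with array weights. The number of genes called, 47, was 19 among the 8000 genes, 30 without the trend, 161 with array weights and 16 to 77 with a mouse left out. In the enzyme, response and inner membrane lists 0 genes were called, and 1, Vldlr, with array weights, with 0 to 1 when a mouse was left out. The number of transporters without overlap between diets, 0, was 1 with equal totals, Slc6a9, and 0 to 1 with a mouse left out. These were Slc6a9 without H1315 and Slc38a3 without F129, each the mouse whose value had overlapped the other diet. Of all genes, 6.54% did not overlap with equal totals, 12.7% without H1315 and 9.73% without F129. The cause was not tested. No paired analysis was possible because the labels give the mice of the 2 diets no shared numbers. With 4 mice a diet, differences of the size seen in Slc38a2 or Slc43a1 were within the spread between mice.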

Other observations

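The order of the Control mice seen in the transporters was also counted in the other lists. The 2 highest Control values were those of F7111 and F2110 in 4 of 8 arginine and urea cycle enzymes, in 5 of 11 enzymes of glutamine, alanine and asparagine and in 7 of 18 of branched-chain and aromatic amino acids, beside 23.5% of all genes. It was so in 3 of 12 other plasma membrane transporters, in 3 of 10 transporters of inner membranes, in 1 of 10 glycine and 0 of 4 taurine enzymes, in 0 of 22 amino acid response genes and in 0 of 19 acute-phase genes. Of the cell type lists it was so in 4 of 10 hepatocyte markers, 4 of 8 periportal and 1 of 8 pericentral markers, 1 of 8 endothelial and 1 of 4 cholangiocyte markers, and in none of the listed blood, macrophage, stellate cell or pancreas markers. Between the diets no marker of these cell types was called. All 8 macrophage markers had positive log2 fold changes (median 0.23), all 4 listed cholangiocyte markers had negative ones (median -0.62), and 6 of 7 blood cell markers had negative ones (median -0.46). Positive ones were found in 7 of 10 hepatocyte and 6 of 8 endothelial markers (median 0.07 and 0.08). In 6 of 8 stellate cell markers they were negative (median -0.16), beside 49.5% of all genes. Markers of a list share the same 8 libraries and are not independent. The counts of mouse order were made after the order had been noticed, and the order was not tested.

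After the mean of each diet was subtracted, the values of the 9 transporters over the 8 mice gave positive Pearson correlations in 28 of 36 pairs, and the 8 negative ones were all pairs with Slc3a2. The pairs share libraries and are not independent, so the correlations are a description. Among the genes most like each transporter by the same measure, over 11783 candidates and 8 mice, were Fam59a and Gtf3c2 for Slc7a2 (r = 0.993 and 0.990), Fam199x for Slc38a2 (0.984), Pdk2 and Etnk2 for Slc38a3 (0.974 and 0.971), Glt1d1 and Prdm4 for Slc38a4 (0.978 and 0.973), and 2310003L22Rik and 2810432D09Rik for Slc3a2 (0.981 and 0.980). They were Homez and Rhbdf2 for Slc43a1 (0.974 and 0.965), Lin52 and Map3k6 for Slc16a10 (0.973 and 0.960), Letm1 and Hdac6 for Slc6a9 (0.973 and 0.952), and Zfp238 and Twistnb for Slc6a6 (0.994 and 0.981).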
